A study of Mus musculus with 2 samples.

Results

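The genes described here are 54 mouse genes of the Wnt pathway, grouped by role into ligands, ligand processing and R-spondins, Frizzled receptors, co-receptors and alternative receptors, secreted antagonists, cytoplasmic transducers and inhibitors, and the LEF/TCF transcription factors. Members were chosen by name, with earlier results of these data known, and found on the array through the probe sets annotated to that gene and no other. Of the 54 genes, 53 had such a probe set, out of 18194 genes on the array with one, and Tcf7 was not analysed here. Total RNA of 1 wild-type and 1 Bmi1 null culture of mouse embryonic fibroblasts (MEFs) was measured on 1 Affymetrix mouse genome array each. Bmi1 is a subunit of the Polycomb repressive complex PRC1, which ubiquitylates histone H2A, and the arrays asked which genes are expressed differently where Bmi1 is missing.

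Both lines were derived from littermates, carry the C57BL/6 strain label and the label Male, and were immortalised with the TBX2.pBabePURO construct, so that the wild-type line also carries the TBX2 transgene. Each line is 1 culture, untreated and grown in serum. With 1 array a group there is no replicate error, no test and no p-value, and genotype, line, culture and array cannot be told apart. Bmi1 itself, the targeted gene, gave signals of 9933 on the wild-type array and 2146 on the null array, a 4.63-fold lower signal, while its other probe set read 931 and 831. The Y-linked gene Eif2s3y read 1683 and 23.3, at least 16.8-fold lower on the null array, and Uty and Kdm5d were likewise at least 11.9-fold and 7.12-fold lower, which goes against the label Male for the null line. Of 12 fibroblast markers 9 were above the detection floor on both arrays, Fap and Lum on the null array alone and Thy1 on the wild-type array alone. Their summed signal was 99215 on the wild-type and 115484 on the null array. Col1a1 (2.16-fold), Col3a1 (4.38-fold) and Lum (at least 7.29-fold) were higher on the null array, Pdgfra (9.31-fold) and Thy1 (at least 3.75-fold) were lower, and Vim read 19519 and 19233. Mesothelial markers summed to 3540 and 11997, with 2 of 5 measured at least 2-fold higher (Gpm6a and Upk3b) and 1 lower (Msln), while Wt1 and Krt19 were below the floor on both arrays. Gpm6a alone read 4.52 and 8828 and made up most of the null sum, while Upk3b read 188 and 1693 and Msln 3006 and 1031. Epithelial markers summed to 448 and 1232 with Cdh1, Krt8, Krt18 and Krt14 below the floor on both arrays, and neural and glial markers summed to 2268 and 4661 with Sox2 below the floor. Epithelial and neural lists had 1 marker each at least 2-fold higher, of 2 and 5 measured, and the neural list also 1 lower (Tubb3). The higher ones were Epcam (149 and 834, most of the epithelial null sum) and Map2 (243 and 2132). The endothelial (415 and 300), macrophage (1508 and 863) and skeletal muscle (752 and 535) lists each had a lower sum on the null array and 1 marker at least 2-fold lower (Cdh5, Cd14 and Acta1), of 2, 3 and 2 measured. Pecam1, Tek, Tie1, Ptprc, Cd68, Myod1 and Myog of these lists were below the floor on both arrays. Whether any of these differences has a part in the values below was not tested, and in a bulk sample fewer cells of a type and less RNA per cell cannot be told apart.

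Wnt proteins are secreted lipid-modified ligands. They bind Frizzled receptors, and in the canonical branch the co-receptors Lrp5 and Lrp6, which recruit Dishevelled and Axin, take apart the complex of Axin, Apc and Gsk3 that marks beta-catenin for destruction, and let beta-catenin enter the nucleus to act with LEF/TCF factors. Other branches run through Ror, Ryk and Frizzled receptors to the cytoskeleton and to calcium. R-spondins raise the number of Wnt receptors at the cell surface, and secreted Frizzled-related proteins, Dickkopf proteins and Wif1 block signaling outside the cell. In fibroblasts the pathway is known for its part in growth, matrix production and the patterning of mesenchyme, and several Wnt genes are textbook Polycomb targets.

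Because the study related Bmi1-dependent H2A ubiquitylation to the promoters of genes, 4 member promoters that differ in CpG content are shown first. Reference windows (RefSeq, mouse build GRCm38.p6) were at hand for 36 of the 54 members, as 45 windows of the 250 bases before an annotated start. Among the members at least 2-fold different between the arrays that have a window, those with the most and the fewest CpG dinucleotides in each direction are printed 5′ to 3′ on the strand of the gene, with every CpG in capitals. Dact1 (chr12:71309634-71309883, plus strand, 41 CpG) and Nkd2 (chr13:73847632-73847881, minus strand, 14 CpG) gave lower signals on the null array. Tcf7l1 (chr6:72789046-72789295, minus strand, 29 CpG) and Dkk2 (chr3:132085042-132085291, plus strand, 7 CpG) gave higher ones.
Dact1: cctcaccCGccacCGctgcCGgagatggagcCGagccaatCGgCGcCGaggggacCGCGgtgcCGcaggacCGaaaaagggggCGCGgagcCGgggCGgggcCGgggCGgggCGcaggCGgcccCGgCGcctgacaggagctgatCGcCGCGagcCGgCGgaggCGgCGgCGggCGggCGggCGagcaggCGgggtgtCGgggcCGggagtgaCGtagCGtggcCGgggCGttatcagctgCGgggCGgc
Nkd2: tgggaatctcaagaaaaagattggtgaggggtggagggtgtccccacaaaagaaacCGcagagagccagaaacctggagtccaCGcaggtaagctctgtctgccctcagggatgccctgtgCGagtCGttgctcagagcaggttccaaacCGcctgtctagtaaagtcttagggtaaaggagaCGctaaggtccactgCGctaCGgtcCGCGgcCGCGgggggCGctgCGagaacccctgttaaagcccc
Tcf7l1: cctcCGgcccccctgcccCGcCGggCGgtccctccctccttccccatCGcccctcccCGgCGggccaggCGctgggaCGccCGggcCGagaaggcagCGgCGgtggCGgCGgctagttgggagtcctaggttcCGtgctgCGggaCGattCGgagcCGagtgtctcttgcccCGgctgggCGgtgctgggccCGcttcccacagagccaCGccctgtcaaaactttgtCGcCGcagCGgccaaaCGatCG
Dkk2: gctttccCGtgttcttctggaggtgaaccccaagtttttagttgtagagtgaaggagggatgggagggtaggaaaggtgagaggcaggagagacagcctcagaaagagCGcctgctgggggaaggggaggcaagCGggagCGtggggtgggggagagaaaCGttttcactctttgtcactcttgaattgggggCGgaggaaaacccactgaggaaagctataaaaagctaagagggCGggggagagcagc
CpGs run through the whole Dact1 window, whereas the Dkk2 window holds a few scattered ones and the letters tataaa 32 bases before the start.

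All values below are MAS5 signals, the linear probe set intensities of the Affymetrix software, scaled by the authors so that the trimmed mean of each array was 500. A signal under 100 (0.2 times the trimmed mean) was treated as below the floor and raised to it, and a fold against such a signal is given as at least that large. Differences are log2 ratios of null over wild-type. Of the 53 genes, 43 were above the floor on at least 1 array and are called measured, 36 of them on both arrays, 6 on the null array alone and 1 on the wild-type array alone. Of the 43, 9 were at least 2-fold higher on the null array, where 5.73% of all 11766 measured genes were, and 4 were at least 2-fold lower, where 5.16% of all measured genes were. Either difference was seen in 13 of the 43 members against 10.9% of all measured genes. Because the members were chosen with earlier results of these data known, these shares describe the list and do not test it. The median log2 ratio of the members was 0.38 and that of all measured genes 0.0060, with 30 members above 0 and 13 below. Since a member above the floor on the null array alone can only have a positive ratio, the 36 above it on both arrays were also counted: 8 lay past 2-fold upward and 3 downward, and the median was 0.37, beside 4.67% higher, 4.19% lower and a median of -0.0075 over the 10444 such genes. The median of the members was thus much the same with and without the genes at the floor on 1 array. With the mean of all probe sets of a gene in place of the brightest, 5 members were at least 2-fold higher, 4 lower, and the median was 0.16. Probe sets below the floor on both arrays count as no difference in this mean.

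**Figure D1:**
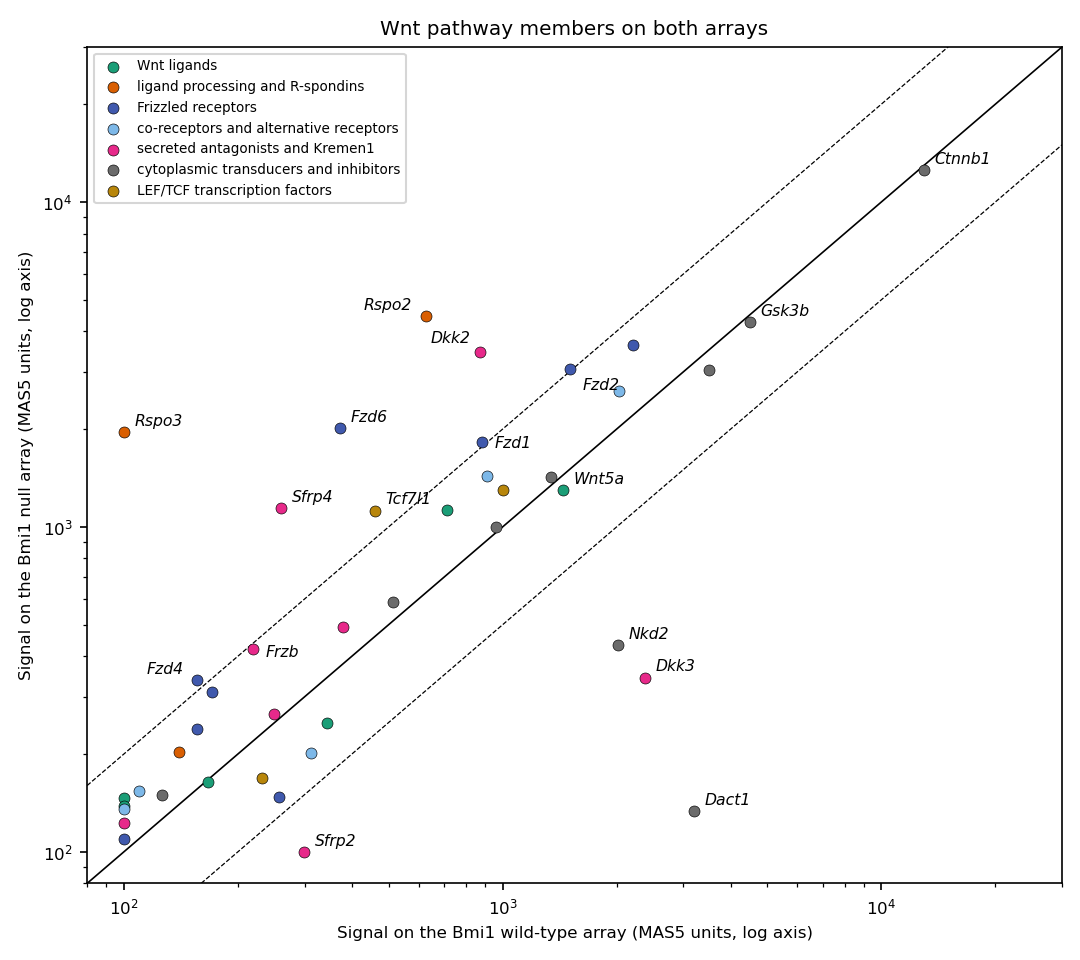
Signal of each measured Wnt pathway member on the wild-type array (horizontal, MAS5 units, log axis) against the null array (vertical, log axis), 1 point a gene, coloured by role, with signals under 100 drawn at 100; the solid line marks equal signals and the dashed lines 2-fold. Rspo3, Rspo2, Fzd6, Sfrp4 and Dkk2 lie far above the upper line, Dact1, Dkk3 and Nkd2 far below the lower one, and Ctnnb1 and Gsk3b sit on the diagonal.

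The only error these files allow is the disagreement between probe sets of 1 gene, since each reads the same RNA. Over 4591 genes with a pair of probe sets bright enough on both arrays, the SD of the log2 ratio was 0.29, from 0.33 at signals of 100 to 500 to 0.21 at 2000 and above. This SD holds probe error but neither culture nor hybridisation error. Of the 13 members at least 2-fold different, 8 had another measured probe set, and in 8 of 8 it pointed the same way. For Fzd1, Fzd4 and Fzd6, however, the other measured probe sets were above the floor on the null array alone, so they could only point upward. In 3 of the 8 (Dkk3, Fzd2 and Nkd2) another probe set was at least 2-fold different too. Among the 30 members within 2-fold, 16 had another measured probe set, and in 9 of them at least 1 probe set pointed the opposite way.

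**Figure D2:**
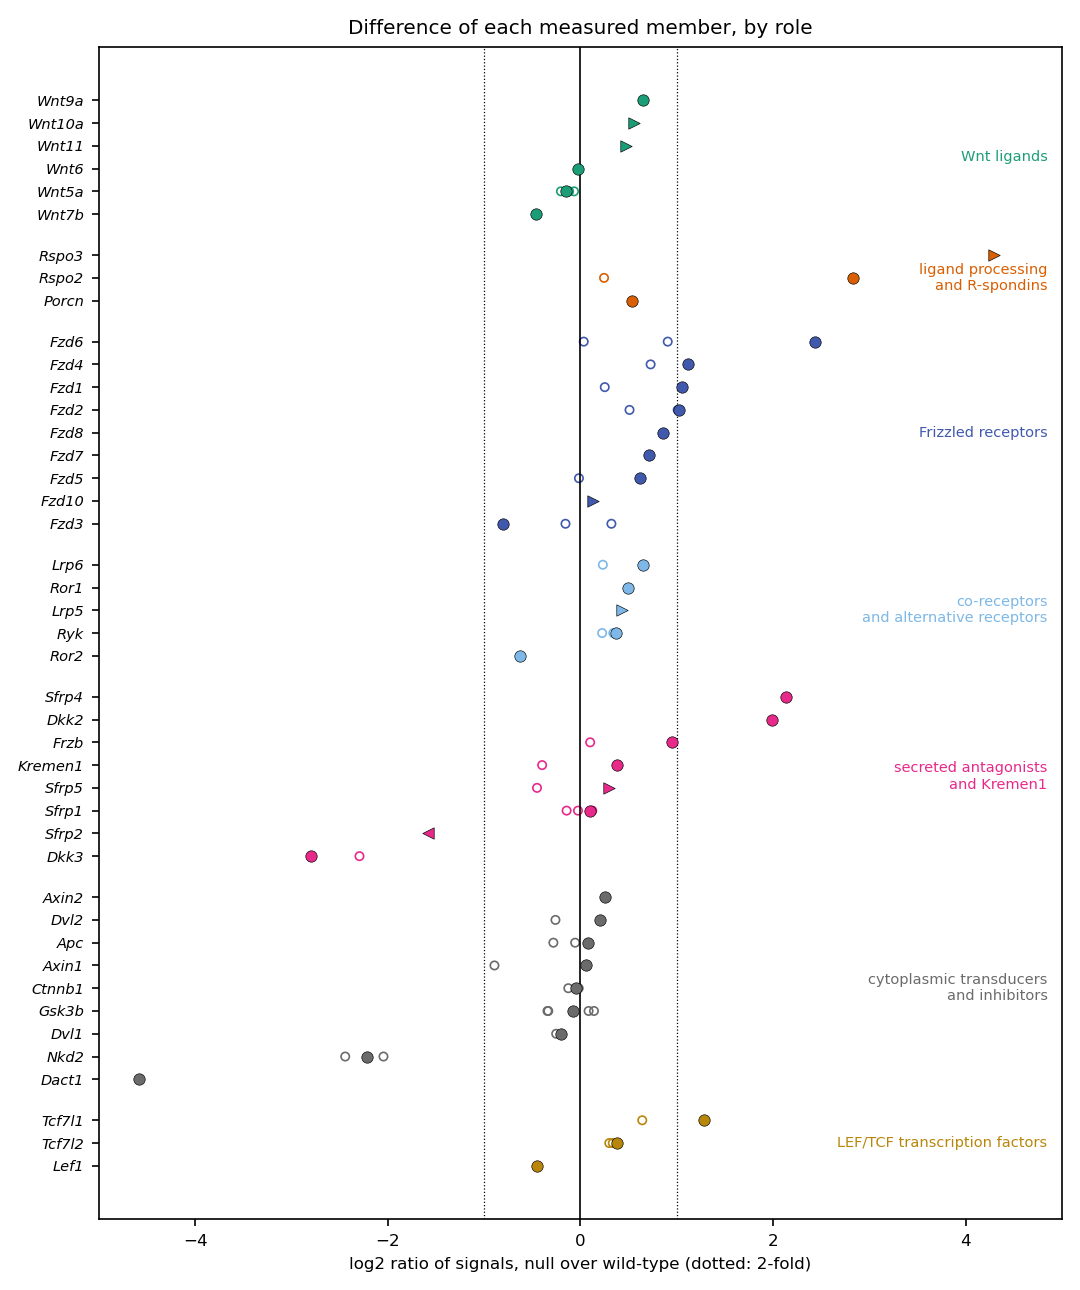
Log2 ratio of null over wild-type signal (horizontal) for each of the 43 measured members, ordered by role; filled points are the probe set used for the gene, triangles are bounds where 1 array was below the floor, open points are the other measured probe sets of the gene, and dotted lines mark 2-fold. Of 9 Frizzled receptors 8 lie right of 0, Fzd10 among them as a bound, whereas the secreted antagonists run from -2.79 to 2.13.

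The Wnt ligands above the floor on both arrays differed little. Of 11 ligands 6 were measured, 0 of 6 were 2-fold different in either direction, and the ratios ran from -0.46 to 0.65 with 3 above and 3 below 0. Over the 4 above the floor on both arrays 1 ratio was above 0 and 3 below, and the median was -0.09 in place of 0.22. Wnt5a, the ligand best known for the beta-catenin-independent branch, read 1446 on the wild-type and 1302 on the null array, a log2 ratio of -0.15, and its 3 other probe sets gave -0.07, -0.20 and -0.12. All 4 probe sets thus pointed slightly down, by less than the spread between probe sets. The one at -0.12 was below the floor on the null array, so it could only point down. Wnt9a gave 715 and 1124, 1.57-fold higher on the null array, and Wnt7b 345 and 250, 1.38-fold lower. Wnt6 was alike on both arrays at 167 and 164. Wnt10a (95.4 and 147) and Wnt11 (66.8 and 139) crossed the floor on the null array alone, for bounds of at least 1.47-fold and 1.39-fold. Whether these 2 lie within 2-fold therefore depended on the floor. With a floor of 0.1 times the trimmed mean Wnt11 was at least 2-fold higher, as 1 of 10 ligands. With no floor 4 of 11 ligands were higher and 1 lower, where 12.9% and 8.68% of all genes were. Wnt2, Wnt2b, Wnt4, Wnt5b and Wnt10b stayed below the floor on both arrays, with signals from 8.81 to 68.3.

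The R-spondin genes differed more than any measured ligand, each on 1 probe set. Rspo2 and Rspo3 encode R-spondins, secreted proteins that bind Lgr receptors and keep Frizzled proteins from being degraded. Rspo2 read 627 on the wild-type and 4461 on the null array, 7.12-fold higher, but its other measured probe set read 141 and 167, 1.19-fold higher. Rspo3 read 14.8 and 1963, at least 19.6-fold higher and from below the floor, while its other probe set read 3.36 and 29.2. Thus each R-spondin had 1 probe set with a large difference and another that showed little or nothing above the floor. Porcn, the acyltransferase that attaches the lipid to Wnt proteins, gave 140 and 203, 1.45-fold higher on the null array and within the range of the ligands.

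Frizzled receptors, the membrane-spanning receptors for Wnt ligands, gave mostly higher signals on the null array. Of 10 genes 9 were measured, with 4 past 2-fold upward and 0 downward, beside 5.73% and 5.16% of all measured genes. Of the 9 ratios 8 were above 0 and 1 below, beside 50.6% above 0 over all measured genes, and the median was 0.86. Over the 8 above the floor on both arrays 7 ratios were above 0 and 1 below, beside 49.3% above 0 over all such genes. The median of these 8 was 0.94. Fzd6, a receptor of the planar cell polarity branch, differed most, with 372 on the wild-type and 2017 on the null array, 5.42-fold higher. The other probe sets of Fzd6 were dim, at 61.1 and 187 and at 75.9 and 102, for bounds of at least 1.87-fold and 1.02-fold.

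Fzd1, Fzd2 and Fzd4 lay just past the 2-fold line. Fzd2 read 1507 and 3060, 2.03-fold higher, and its other probe sets read 1455 and 2930 (2.01-fold) and 1424 and 2028 (1.42-fold). Fzd1 read 884 and 1832, 2.07-fold higher, with a dim other probe set at 80.9 and 119. Fzd4, the receptor through which norrin also signals, read 156 and 338, 2.17-fold higher, and another probe set read 56.1 and 166, at least 1.66-fold higher. In each of the 3 the other measured probe sets were higher on the null array too, those of Fzd1 and Fzd4 from below the floor on the wild-type array.

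Among the other Frizzled genes, Fzd7 read 2217 and 3630 (1.64-fold higher), Fzd8 171 and 311 (1.82-fold) and Fzd5 156 and 240 (1.54-fold), although a second probe set of Fzd5 read 116 and 115. Fzd10 crossed the floor on the null array alone at 78.9 and 109, and Fzd9 was below it on both at 9.50 and 76.6. Fzd3, needed for axon guidance in the embryo, was the exception in direction with 257 and 147, 1.74-fold lower, but its other measured probe sets gave log2 ratios of 0.32 and -0.15. So Fzd3 had no settled direction between its probe sets. With the mean of all probe sets of a gene in place of the brightest, 1 of 9 Frizzled genes (Fzd6) was at least 2-fold higher. Fzd1, Fzd2 and Fzd4 then lay within 2-fold, and the median was 0.43. In that mean, probe sets below the floor on both arrays count as no difference.

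The co-receptors and alternative receptors showed smaller differences, with 0 of 5 past 2-fold and a median of 0.43. Lrp6, the co-receptor that takes up the canonical signal beside Frizzled, read 912 and 1433, 1.57-fold higher, and Lrp5 crossed the floor on the null array alone at 88.8 and 135. Ryk, a kinase-dead Wnt receptor, read 2033 and 2619, 1.29-fold higher. The receptor tyrosine kinases Ror1 and Ror2, which bind Wnt5a, pointed opposite ways, with Ror1 at 110 and 154 (1.41-fold higher) and Ror2 at 312 and 202 (1.55-fold lower). Of the 4 above the floor on both arrays 3 ratios were above 0 and 1 below, where 49.3% of all such genes had a ratio above 0.

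**Figure D3:**
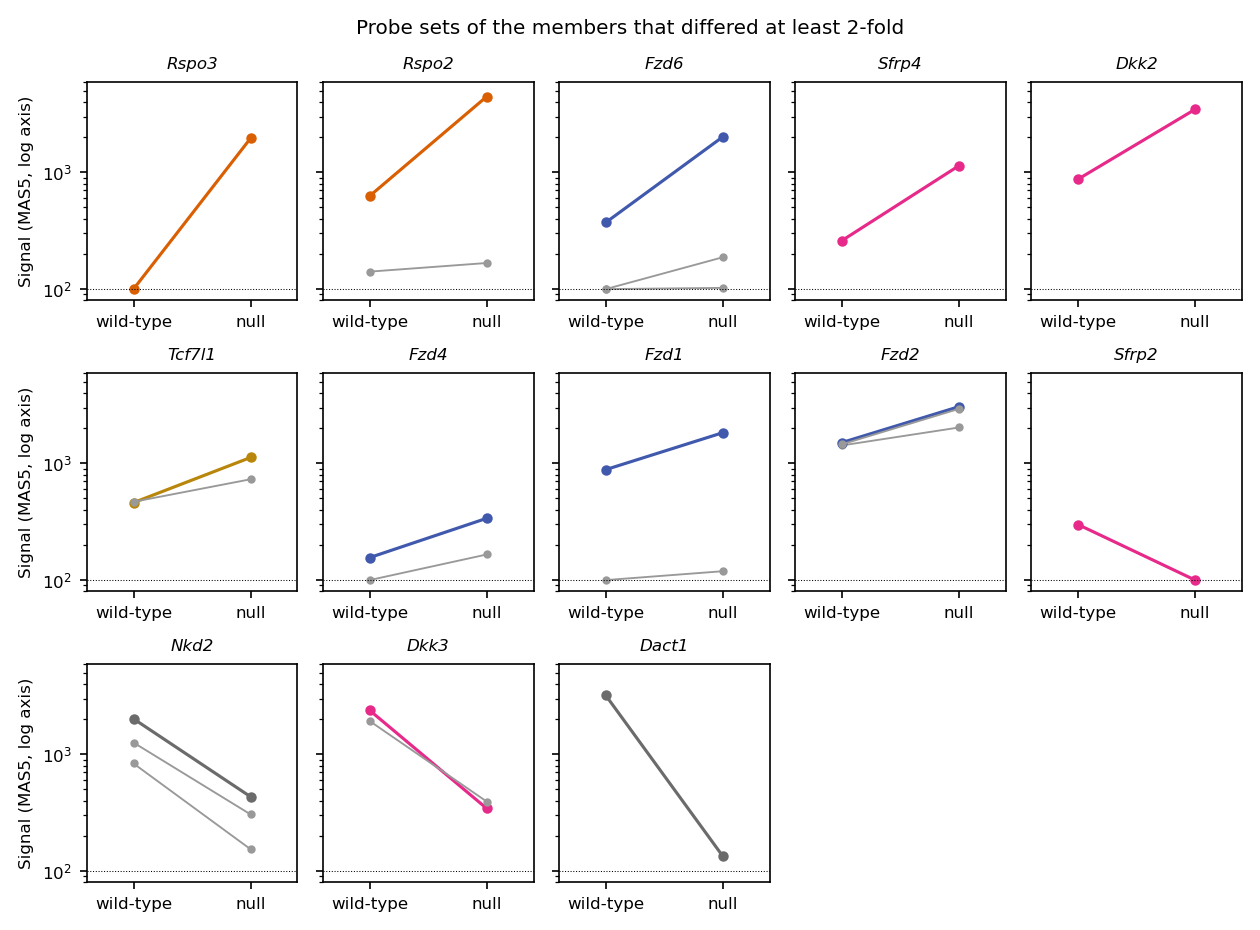
MAS5 signal (vertical, log axis) on the wild-type and the null array for every measured probe set of the 13 members at least 2-fold different; the coloured line is the probe set used, grey lines are the others, and the dotted line is the floor of 100, to which lower signals were set. The grey lines of Fzd2, Dkk3 and Nkd2 run beside the coloured one, whereas those of Rspo2, Fzd1 and Fzd6 are flatter and lie near the floor.

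Secreted antagonists differed in both directions, with log2 ratios from -2.79 to 2.13. Of the 10 genes of this class, which includes the Dickkopf receptor Kremen1, 8 were measured. Past 2-fold were 2 upward and 2 downward, beside 5.73% and 5.16% of all measured genes. The median was 0.34, or 0.0019 with the mean of all probe sets and 0.66 over the 6 above the floor on both arrays. The secreted Frizzled-related proteins bind Wnt ligands or Frizzled receptors through a domain like that of Frizzled itself. Sfrp4 read 260 on the wild-type and 1141 on the null array, 4.39-fold higher on the 1 probe set of that gene. Sfrp2 went the other way from 299 to 36.1, at least 2.99-fold lower, also on 1 probe set, and lay below the floor on the null array. Sfrp1 was alike on both arrays at 249 and 266, and its 3 other measured probe sets gave log2 ratios from -0.14 to 0.12. Frzb (Sfrp3) read 219 and 422, 1.93-fold higher and just under the 2-fold line. Sfrp5 stayed near the floor at 81.8 and 123, with another probe set at 137 and 63.5 pointing the opposite way. Of the 5 family members, then, Sfrp2 and Sfrp4 differed in opposite directions and the measured signal of Sfrp1 hardly at all.

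The Dickkopf genes were as divided. Dkk2, which binds Lrp5 and Lrp6 and needs Kremen proteins to act as a full antagonist, read 874 and 3466, 3.97-fold higher on its 1 probe set. Dkk3, the family member whose part in Wnt signaling is least settled, read 2382 and 344, 6.93-fold lower, and its other probe set 1930 and 394, 4.90-fold lower. Both probe sets of Dkk3 therefore put the wild-type signal above the null signal by several fold. Dkk1, itself a target gene of beta-catenin, was below the floor on both arrays at 30.1 and 43.4, as was Wif1 at 6.03 and 8.11. Kremen1 read 379 and 493, 1.30-fold higher, with another probe set at 135 and 102.

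The cytoplasmic core of the pathway gave nearly equal signals, apart from members that restrain Dishevelled. Of 11 genes 9 were measured, with a median of -0.048 (0.0047 with a floor of 0.1 times the trimmed mean), 4 ratios above 0 and 5 below. With the mean of all probe sets of a gene the median was -0.087, with 1 ratio above 0 and 8 below. Ctnnb1, which encodes beta-catenin, read 12968 and 12543, a log2 ratio of -0.05, and its kinase Gsk3b read 4507 and 4280, a log2 ratio of -0.07. The scaffold genes Apc (1345 and 1420) and Axin1 (963 and 1002) were 1.06-fold and 1.04-fold higher, although another probe set of Axin1 read 250 and 135, 1.86-fold lower. Axin2, the scaffold that is also a classic target gene, read 126 and 150. Among the Dishevelled genes, Dvl1 read 3510 and 3046 (1.15-fold lower), Dvl2 513 and 590 (1.15-fold higher), and Dvl3 was below the floor on both arrays. These 7 genes (Ctnnb1, Gsk3b, Apc, Axin1, Axin2, Dvl1 and Dvl2) had log2 ratios between -0.20 and 0.25 on the probe set used. Other measured probe sets of Apc (-0.28 and -0.05) and Dvl2 (-0.26) pointed the opposite way, and those of Gsk3b ran from -0.34 to 0.14.

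Dact1 and Nkd2 encode Dishevelled-binding inhibitors of the pathway and were the members of this class past 2-fold, both lower. They were 2 of 9 measured genes, beside 5.16% of all measured genes. Dact1 read 3199 on the wild-type and 134 on the null array, 23.9-fold lower, on the 1 probe set of the gene and just above the floor in the null line. Nkd2 read 2016 and 433, 4.65-fold lower, and its other measured probe sets read 1261 and 306 (4.12-fold lower) and 835 and 154 (5.43-fold lower). The 3 Nkd2 probe sets above the floor therefore gave the same direction and much the same size, while another stayed under the floor. Nkd1, the paralog of Nkd2, was below the floor at 56.5 and 82.4.

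In the nucleus, Tcf7l1, the LEF/TCF member that mostly represses target genes, read 461 and 1123, 2.44-fold higher, and its other probe set read 468 and 731, 1.56-fold higher. Tcf7l2 read 1001 and 1303, 1.30-fold higher, with its other measured probe sets at log2 ratios of 0.30 and 0.34. Lef1, which mostly activates and is a target gene in its own right, read 231 and 169, 1.37-fold lower. The LEF/TCF genes thus split, with Tcf7l1 past 2-fold upward and Lef1 somewhat lower. Of the members known as target or feedback genes of beta-catenin (Axin2, Nkd1, Nkd2, Lef1, Tcf7 and Dkk1), 3 were measured, 0 were at least 2-fold higher and 1, Nkd2, was lower.

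The remaining genes of the pathway were taken from lists of 106 genes, of which 103 had a probe set and 82 were measured. Past 2-fold were 6 upward and 6 downward, and the median was 0.06. Those shares lie near the 5.73% and 5.16% of all measured genes. Among other extracellular modulators 6 of 12 were measured, with 2 higher and 1 lower. Their median of 0.63 depended on the floor, being 0.20 with a floor of 0.1 times the trimmed mean, 0.12 with a pseudocount and 0.89 over the 5 above the floor on both arrays. Gpc6, a heparan sulphate proteoglycan of the cell surface, read 331 and 2647, 8.0-fold higher, and its other measured probe sets were 2.58-fold, at least 3.21-fold and 10.3-fold higher. Sulf1, the sulphatase that trims heparan sulphate and so frees Wnt ligands from it, read 106 and 1694, with its other measured probe set at least 11.3-fold higher. Gpc1 went the other way at 905 and 385, 2.35-fold lower. Named after their values were seen, Gpc4 (2087 and 3858) and Sulf2 (1815 and 2351) were 1.85-fold and 1.30-fold higher. Gpc4 was 2.60-fold higher on its other probe set, while those of Sulf2 gave log2 ratios of 0.15 and -0.32. Among these heparan sulphate genes Gpc1, on its 1 probe set, was thus the lower one.

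Ligand secretion and the R-spondin receptors differed less. Of 16 further genes of that list 7 were measured and 0 were past 2-fold, among them, named after their values were seen, Wls, the carrier of Wnt proteins through the secretory route (5174 and 7113), and the R-spondin receptor Lgr4 (1308 and 2337). In the list of destruction complex genes, transducers and nuclear partners, 26 of 28 were measured, with 1 higher, 1 lower and a median of 0.08. Amer1, a scaffold that binds Apc, read 371 and 750, 2.02-fold higher, and 1.53-fold higher on its other probe set. The lower one, named after its values were seen, was Dact2, the paralog of Dact1, at 310 and 4.79, at least 3.10-fold lower. Amer1 lay within 2-fold with a pseudocount or the mean of all probe sets, and Dact2 with a floor of 0.4 times the trimmed mean or the mean of all probe sets. The planar cell polarity and calcium list had 18 of 22 measured, 1 higher (Nfatc2, also named after its values were seen, at 95.1 and 270, within 2-fold under all 3 of these settings) and 0 lower, with a median of 0.05, or -0.02 over the 16 above the floor on both arrays.

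Of 28 beta-catenin target genes outside the members 25 were measured. At least 2-fold higher were 2 (8%) and lower 4 (16%), beside 5.73% and 5.16% of all measured genes. This split depended on the probe sets. With the mean of all probe sets 3 were higher and 3 lower, where 4.12% and 3.88% of all genes were. Without probe sets of suffix s, x or a, 20 were measured, 2 of them higher and 2 lower. The median was -0.42, with 10 ratios above 0 and 15 below, and -0.24 with a pseudocount. Fosl1, an AP-1 subunit, read 3480 and 373, 9.33-fold lower, and its other probe set was at least 6.63-fold lower. Ptgs2, the inducible cyclooxygenase, read 10360 and 4455, 2.33-fold lower, and 4.44-fold lower on its other probe set. Enc1 read 750 and 317, 2.36-fold lower, and 1.84-fold lower on its other measured probe set, so that it lay within 2-fold with the mean of all probe sets (log2 ratio -0.71). Edn1, named after its values were seen, read 312 and 144, 2.17-fold lower on its 1 probe set. Its ratio lay within 2-fold with a pseudocount or a floor of 0.4 times the trimmed mean. Id2, an inhibitor of basic helix-loop-helix factors, went the other way at 210 and 997, 4.74-fold higher, as did the activin antagonist follistatin, Fst, at 411 and 873, 2.12-fold higher and within 2-fold with a pseudocount. These genes answer to many signals besides beta-catenin, and 19 of the 25 lay within 2-fold.

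**Figure D4:**
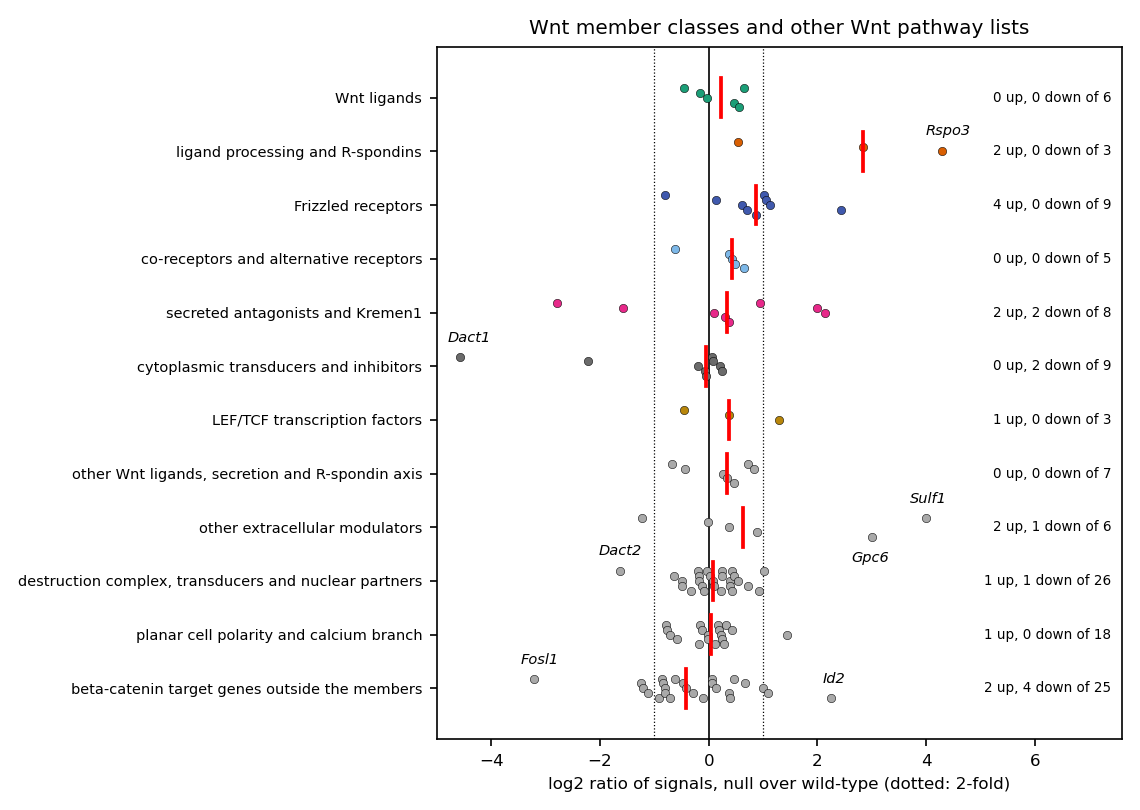
Log2 ratio of null over wild-type signal (horizontal) for each measured gene of the 7 member classes (coloured) and the 5 further pathway lists (grey), 1 point a gene, with signals below the floor set to it; red bars are medians, dotted lines mark 2-fold, and the text at the right gives how many were at least 2-fold higher (up) or lower (down) of those measured. The medians of the Frizzled receptors (0.86) and of the target genes (-0.42) lie on opposite sides of 0, and the destruction complex and planar cell polarity lists centre near it.

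Promoter sequence was a property that the list of members did not use. The 45 member windows held from 4 to 48 CpG dinucleotides with a median of 20, and 36 of the 45 held at least the 10 that is the median over 21263 windows of protein-coding genes. Wnt9a had the most, at 48, and gave a 1.57-fold higher signal, while Wnt4, with 44, was below the floor on both arrays. Windows were at hand for 4 of the 9 members at least 2-fold higher and 3 of the 4 lower. The higher ones held 29 (Tcf7l1), 25 (Fzd4), 12 (Fzd1) and 7 (Dkk2), and the lower ones 41 (Dact1), 16 (Sfrp2) and 14 (Nkd2). The ranges of these 4 and 3 genes overlapped. In the sequences printed above, Dact1 and Tcf7l1 share a dense CpG content but differed in opposite directions.

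**Figure D5:**
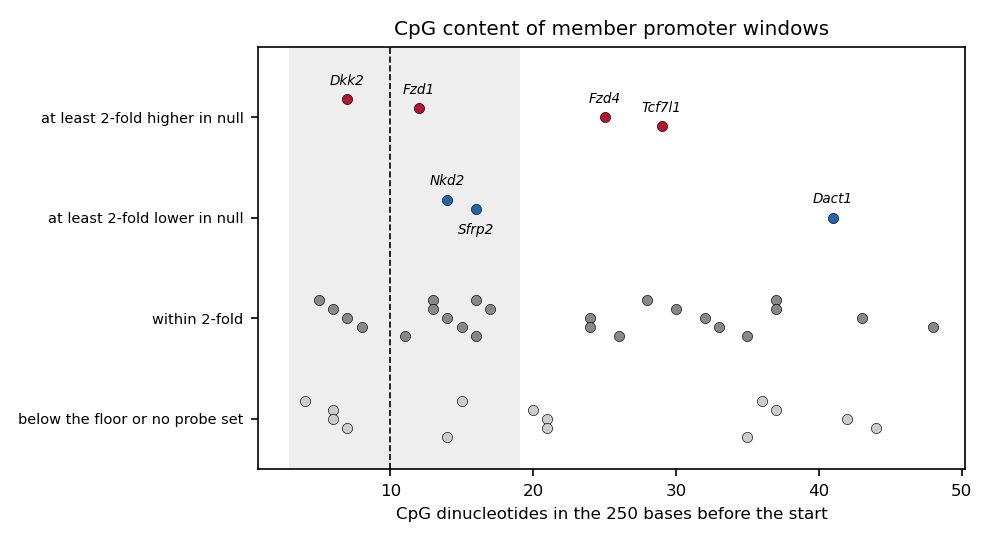
Number of CpG dinucleotides in the 250 bases before the start (horizontal) for each of the 45 member promoter windows, 1 point a window, in rows by the difference of the gene between the arrays; the grey band spans the quartiles (3 to 19) and the dashed line the median (10) of windows of protein-coding genes. The 4 windows of higher genes run from 7 to 29 and the 3 of lower genes from 14 to 41.

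The windows were also searched on both strands for the LEF/TCF motif CTTTGAA and its variants that end in TT, AT or TA, for the T-box motif TCACACC, since both lines carry TBX2, and for the TATA motif TATAAA. A LEF/TCF match was found in 6 of 45 member windows, or 13.3%, beside 13.2% of the windows of protein-coding genes. The 6 belonged to Dkk1, Fzd7, Lef1, Tcf7l2, Wnt11 and Wnt5b. Dkk1, a known target gene, held 2 matches, 117 and 98 bases before the start, but its signal was below the floor on both arrays. The T-box letters were in 0 of 45 windows and in 3.08% of those of protein-coding genes. TATAAA was in 11 of 45 windows, or 24.4%, beside 11.6% of those of protein-coding genes. These matches lay from 8 to 242 bases before the start, at 32 in Dkk2 and 202 in Fzd1, both at least 2-fold higher. None of the 3 windows of lower members held one, and so few windows do not allow a comparison of the directions. A match is a run of letters and not a bound site, and the lack of one says only that these letters are not in the window.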

How the data were processed

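Total RNA of 1 Bmi1 wild-type and 1 Bmi1 null MEF culture was hybridised to 1 array each. The authors computed MAS5 probe set signals, deposited as linear intensity values already background-corrected and scaled (trimmed mean 500 after leaving out 2% at each end). Here, 34958 of 45101 probe sets with 1 gene symbol in the platform annotation were used, 932 with several symbols and 9211 with none were not. Where a gene had several, the brightest by mean log2 signal over both arrays stood for it. Signals under 100 (0.2 times the trimmed mean) were set to 100, and a log2 ratio of null over wild-type was taken where at least 1 array was above. With 1 array a group no test was made, and the number of arrays limits the precision. The members and lists were chosen with earlier results of these data known. Every member was named, and from other lists, beside those said to be named after their values were seen, up to 6 genes at least 2-fold different whose brighter signal reached the trimmed mean. Calls were tested on simulated data with changes larger than 2-fold in bright genes, which does not cover calls near 2-fold or near the floor. Other floors, a pseudocount, other probe set rules and other scalings were tried. Tcf7, Ddx3y, Kremen2, Prickle3 and Rock2 were not analysed here, nor were the promoters of Axin1, Fzd6, Lrp5, Wnt7b, Fzd8, Dkk3, Kremen1, Porcn, Fzd2, Wnt5a, Sfrp4, Apc, Wnt10a, Sfrp1, Rspo2, Lrp6, Rspo3 and Fzd3. Python 3.11.15, numpy 2.4.6, pandas 2.3.3 and matplotlib 3.10.9 were used.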

Additional observations from a re-analysis of the deposited data

How the results depend on the processing

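Of the 13 members at least 2-fold different, 8 (Dact1, Dkk2, Dkk3, Fzd6, Nkd2, Rspo2, Rspo3 and Sfrp4) were past 2-fold in the same direction under all 8 alternatives, and 0 changed direction under any. Every alternative used the same arrays again, and a floor or a pseudocount cannot change a direction. For Dact1, Dkk2 and Sfrp4, each with 1 probe set, the other probe set rules could only return the main value. These counts therefore describe the processing and not the error of the values. Fzd1 and Fzd2 were past it under 6, Fzd4 under 5, and Sfrp2 and Tcf7l1 under 7. The higher floor brought Fzd4 (0.76) and Sfrp2 (-0.58) within 2-fold on the log2 scale, and the mean of all probe sets Fzd1, Fzd2, Fzd4 and Tcf7l1. The count of members at least 2-fold higher was 14 with no floor and 5 with the mean of all probe sets, in place of 9, where 12.9% and 4.12% of all genes were. Their median log2 ratio of 0.38 became 0.26 when the floor was raised to 0.4 times the trimmed mean, 0.49 with no floor, 0.28 when a pseudocount replaced the floor and 0.16 with the mean of all probe sets. The 12 other pathway genes past 2-fold became 26 of 103 with no floor, where 12.9% of all genes were higher and 8.68% lower. Quantile normalization and median centring left 9 members higher and 4 lower, with medians of 0.40 and 0.39. The mean of all probe sets also took in probe sets below the floor on both arrays, each with a log2 ratio of 0. Rspo3, whose other probe set was such a one, thereby went from 4.30 to 2.15. How much of the lower count came from such probe sets, and how much from measured ones that differed less, was not tested. No paired analysis was possible because there was 1 array per group.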
